A study of Rattus norvegicus with 145 samples.

Results

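The genes described here are 38 genes of the complement and coagulation systems, chosen by their symbols with no measured value in the rule. Earlier results of these data were known when they were chosen. The list held 20 complement genes and 18 genes of coagulation and fibrinolysis. Of these, 37 were among the 17337 genes counted in rat liver, and C5 was not among them. Mbl2, a mannose-binding lectin, had 0 counts in all 145 rats, where a count of 0 allows a level of up to 0.075 to 0.194 CPM (counts scaled to the reads on genes; 3 counts in a rat, counting error only). The cause of this 0 was not tested, so it is not read as absence of Mbl2 mRNA from liver. Kng1, a kininogen, had at most 12 counts in any male and 20 in any female and passed the filter on low counts only in females. The other 35 members had at least 138 counts in every rat. Thus 35 members were tested in each male data set and 36 in each female data set, where the filter left 11279 to 11497 genes.

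Complement and coagulation are cascades of plasma proteases and cofactors that hepatocytes make and secrete. Complement is started by the classical, lectin or alternative pathway, all of which cleave C3, and ends in a pore assembled from C5 to C9. Coagulation runs from the contact factors and tissue factor through factor X to thrombin, is held in check by antithrombin and protein C, and its clots are dissolved by plasmin. Many of these genes are known targets of liver-enriched transcription factors and change during the acute phase response. Lower mRNA in a piece of liver can come from fewer cells of a type or from less RNA per cell, and these cannot be told apart in bulk RNA.

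Liver RNA (left lobe) was sequenced from 145 Wistar rats gavaged daily with acetamide in water or with water alone. Experiment A used male Hsd:WI rats aged 9 to 10 weeks, dosed for 7 days at 30, 100, 300 and 1000 mg/kg/day (mkd), with a vehicle group at 0. Experiment B used male and female Crl:WI rats aged 8 to 10 weeks, which received 0, 300, 500, 750, 1000 or 1500 mkd for 7 or 28 days. Livers were taken on day 8 or day 29, and each of the 29 groups held 5 rats. The 5 control males of day 29 carried the exposure label of experiment A but the strain and titles of experiment B, where they were placed. Each rat had 15449716 to 39986531 reads on genes (median 28262376). The rats of a group were separate animals, numbered here in the order of their samples. In the 100, 300 and 1000 mkd groups of experiment A these numbers differ from those in the sample titles.

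Some livers stood apart from their group before any member was tested. The factor of the trimmed mean of M-values (TMM), which edgeR uses to make rats comparable, was 1.91 in rat 2 at 1000 mkd in experiment A and 1.06 to 1.47 in the other 4 rats of that group, against 0.856 to 0.976 in the controls. It was 1.49 in rat 3 at 1500 mkd of the males of day 29 and 0.970 to 1.08 in the other 4 rats of its group. It was 1.45 in rat 2 at 1500 mkd of the females of day 29, 1.04 to 1.25 in the others of that group and 0.735 and 0.774 in control females 5 and 4. Alb, which encodes albumin, took 8.57%, 8.23% and 6.79% of the reads on genes in these 3 treated rats and 21.7% and 21.9% in the 2 control females. Counts of called members are therefore also given without these rats. The shares of all genes called without a rat are not reported here, so those counts show only how the members' calls depend on it. Because the factors differ between groups, scaling by total counts alone moved the median change of all genes by 0.58 on the log2 scale at 1000 mkd in experiment A, by 0.42 at 1500 mkd in females on day 29 and by 0.13 to 0.22 at the highest dose of the other 3 data sets. The median of the members lay below that of all genes by 0.68 with TMM and by 0.77 with total counts in experiment A, and by 0.46 and 0.48 in females on day 29. All changes below are relative to the TMM scale.

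At 1000 mkd in experiment A, most complement and coagulation genes were lower than in the controls. Differential expression required an adjusted p of at most 0.05 (edgeR, Benjamini-Hochberg) and a level at least 1.5 times higher or lower. By these criteria 21 of 35 members were differentially expressed, all of them lower, where 7.45% of all genes tested were called lower. At an adjusted p of at most 0.05 without the fold limit, 26 members fell and 1, C2, rose, against 14.2% and 16.5% of all genes. The median log2 fold change was -0.68 over the members and 0.00 over all genes tested. In 17 members all 5 treated rats lay below all 5 controls, which held for 7.22% of all genes. Both arms took part: 11 of 18 complement genes fell (median -0.63), and 15 of 17 coagulation genes fell (median -0.69). Without rat 2 at 1000 mkd, 14 members were differentially expressed. With total counts as the scale 1 member was called lower, C8b (-1.0), and 3 were called higher, C1r (0.85), C2 (0.98) and C6 (1.23). At the adjusted p alone 8 members then fell and 5 rose, and 26 of 35 members had a log2 fold change below 0, against 32 of 35 with TMM.

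**Figure D1:**
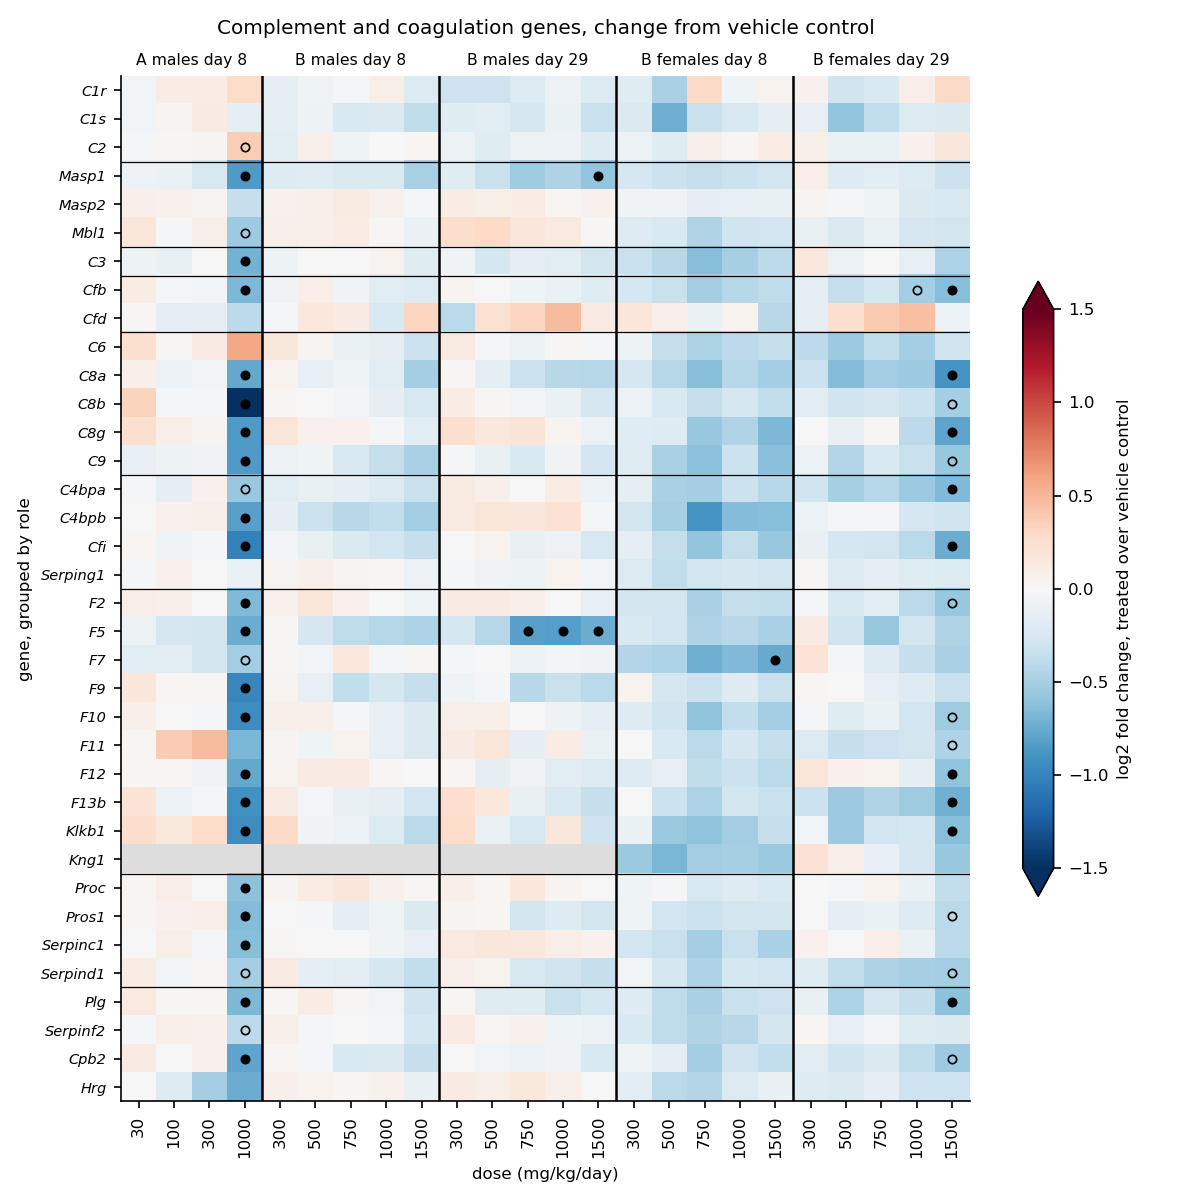
Log2 fold change over the vehicle control (color) of the 36 members tested, in rows grouped by role, at each dose in mg/kg/day of the 5 data sets. Filled circles mark differential expression, open circles an adjusted p of at most 0.05 with a smaller fold change, and grey means not tested: the 1000 mkd column of experiment A holds 21 filled circles and the 1500 mkd column of females on day 29 holds 9.

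The terminal pathway, whose proteins form the membrane pore, had the lowest median of the 9 roles, -0.85 over 5 genes tested, of which 4 were differentially expressed. C8b encodes the beta chain of C8. Its level was 495, 494, 439, 222 and 542 CPM in the 5 controls and 153, 133, 166, 88.4 and 204 CPM in the 5 rats at 1000 mkd. All treated rats were below all controls, although control rat 4 lay far below the other controls. Levels also spread widely at the lower doses, with some rats near the highest rat at 1000 mkd. They were 207, 211, 929, 802 and 604 CPM at 30 mkd and 208, 442, 261, 449 and 806 CPM at 100 mkd. At 300 mkd they were 246, 513, 445, 488 and 479 CPM. At 1000 mkd the log2 fold change was -1.56 ± 0.40 (SE, adjusted p = 0.00543). C8a, the alpha chain, measured 1199.8, 1528, 1189, 1612 and 1521 CPM in controls and 1038, 473, 1171, 824 and 652 CPM at 1000 mkd (-0.76 ± 0.22, SE, adjusted p = 0.0107). C8g, the gamma chain, measured 284, 324, 291, 317 and 265 CPM against 224, 72.4, 253, 142 and 129 CPM (-0.85 ± 0.22, SE, adjusted p = 0.00625). C9, which polymerizes into the pore, measured 1329, 1507, 1313, 1646 and 1494 CPM against 950.4, 444, 1155, 861 and 619 CPM (-0.85 ± 0.18, SE, adjusted p = 0.00177). For all of these chains the groups did not overlap, and rat 2 was lowest for C8a, C8g and C9. The exception was C6, the scaffold of the pore, with 212, 254, 196, 267 and 232 CPM in controls and 213, 450.3, 290.5, 459.6 and 321 CPM at 1000 mkd. Its log2 fold change of 0.58 ± 0.28 (SE, adjusted p = 0.112) did not pass the test, although 4 of 5 treated rats lay above all controls.

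Of the 4 regulators tested 3 fell, and 2 were differentially expressed. Cfi encodes the protease that inactivates C3b and C4b. It was at 1357, 1579, 1342, 1373 and 1347 CPM in controls and 1002, 346, 968, 566 and 579.9 CPM at 1000 mkd. The groups did not overlap, and the log2 fold change was -1.02 ± 0.20 (SE, adjusted p = 0.000999). C4bpa and C4bpb, the chains of C4b-binding protein, gave -0.57 ± 0.18 (SE, adjusted p = 0.0171) and -0.81 ± 0.23 (SE, adjusted p = 0.011). Cfb, the protease subunit of the alternative pathway convertase, was at 2341, 3247, 2477, 2765 and 2988 CPM against 2100.2, 1361, 2032, 1689 and 1446 CPM (-0.68 ± 0.15, SE, adjusted p = 0.00241), again with no overlap. C3 itself was at 15874, 13023, 13927, 17248 and 10797 CPM in controls and 12725, 4638, 11374, 8514 and 6044 CPM at 1000 mkd (-0.71 ± 0.24, SE, adjusted p = 0.0277). Here rats 1 and 3 lay within the range of the controls, and the call was lost in 7 of 17 alternative fits. Masp1, a protease of the lectin pathway, was at 315, 269, 333, 362 and 190.2 CPM against 172, 83.2, 220.3, 162 and 178 CPM (-0.85 ± 0.21, SE, adjusted p = 0.00388), and rat 3 lay within the controls. Mbl1, a lectin that binds mannose, gave -0.54 ± 0.18 (SE, adjusted p = 0.0257). Masp2 gave -0.35 ± 0.14 (SE, adjusted p = 0.066) and Cfd, complement factor D, -0.39 ± 0.22 (SE, adjusted p = 0.182), and neither passed the test.

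The early classical pathway did not share this direction. C2, which is cleaved by C1s, rose, with a log2 fold change of 0.37 ± 0.12 (SE, adjusted p = 0.018), and 3 of 5 treated rats lay above all controls. C1r and C1s, the proteases of the C1 complex, gave 0.27 ± 0.14 (SE, adjusted p = 0.135) and -0.13 ± 0.18 (SE, adjusted p = 0.616). Serping1 encodes the C1 inhibitor, which blocks C1r, C1s and kallikrein. It was at 1163, 1283, 1192, 1336 and 761 CPM in controls and 1039, 969, 1234, 1058 and 1072 CPM at 1000 mkd, so that the groups overlapped. Its log2 fold change was -0.09 ± 0.14 (SE, adjusted p = 0.639), and with total counts as the scale it was 0.47 and passed the adjusted p.

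Of the 9 clotting and contact factors tested, 8 fell and 7 of these were differentially expressed. F9, coagulation factor IX, was at 1031, 1139, 1149.9, 1218 and 914 CPM in controls and 662, 260.5, 804, 481 and 558 CPM at 1000 mkd (-0.98 ± 0.21, SE, adjusted p = 0.00157). F10, at the junction of the intrinsic and extrinsic routes, was at 578, 599, 664, 656 and 588 CPM against 443, 162, 456, 285 and 269.8 CPM (-0.93 ± 0.18, SE, adjusted p = 0.000764). Klkb1, plasma prekallikrein, was at 390.1, 416, 342, 369 and 431 CPM against 255, 97.3, 301, 189.6 and 183 CPM (-0.93 ± 0.20, SE, adjusted p = 0.00165). None of these groups overlapped, and in each of them rats 1 and 3 were the highest of the treated rats. F12, which starts the contact route, was at 1018, 1091, 1138, 1117 and 983 CPM against 783, 406, 862, 543 and 548 CPM (-0.77 ± 0.17, SE, adjusted p = 0.0018), with no overlap. F13b, the carrier subunit of factor XIII, was at 321, 398, 307, 381 and 473 CPM against 239.6, 84.2, 312, 189 and 180.2 CPM (-0.90 ± 0.28, SE, adjusted p = 0.018), and rat 3 lay within the controls. F2, prothrombin, was at 3314, 3704, 3042, 3389 and 3421 CPM against 2744, 1431, 2716, 1928 and 1832 CPM (-0.66 ± 0.15, SE, adjusted p = 0.00256), with no overlap. F5, the cofactor of factor Xa, was at 269.8, 359, 346, 418 and 234 CPM against 249.6, 113, 268, 113 and 224 CPM (-0.75 ± 0.23, SE, adjusted p = 0.0177), with 3 of 5 treated rats below all controls. F7, the factor that pairs with tissue factor, gave -0.53 ± 0.19 (SE, adjusted p = 0.0356) and did not reach the fold limit. F11 gave -0.69 ± 0.27 (SE, adjusted p = 0.0583) and did not pass the test.

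The inhibitors of clotting fell along with the factors. Serpinc1, antithrombin, was at 2591, 2794, 2679, 2653 and 2080.5 CPM in controls and 2129.5, 1088, 2082, 1592 and 1312 CPM at 1000 mkd (-0.64 ± 0.16, SE, adjusted p = 0.00414). Rats 1 and 3 overlapped the lowest control. Proc, protein C, was at 601, 639.7, 602, 634 and 551 CPM against 511, 239, 545, 348 and 338 CPM (-0.61 ± 0.16, SE, adjusted p = 0.00657), and Pros1, its cofactor protein S, was at 291, 288, 290.5, 318 and 268 CPM against 226, 104, 240.1, 174 and 183 CPM (-0.65 ± 0.15, SE, adjusted p = 0.00257). Neither overlapped. Serpind1, heparin cofactor II, fell by less than the fold limit (-0.51 ± 0.15, SE, adjusted p = 0.0142). Of 4 fibrinolysis genes 3 fell. Plg, plasminogen, was at 4249, 4773, 4536, 4865 and 4264 CPM against 3881, 1452, 3945, 2538 and 2420.0 CPM (-0.67 ± 0.19, SE, adjusted p = 0.00948) with no overlap. Cpb2, which protects clots from plasmin, gave -0.79 ± 0.21 (SE, adjusted p = 0.00656), and Serpinf2, the plasmin inhibitor, gave -0.39 ± 0.14 (SE, adjusted p = 0.0357). Hrg, a histidine-rich plasma glycoprotein, gave -0.75 ± 0.34 (SE, adjusted p = 0.1) and did not pass the test. The calls of F5 and Proc were each lost in 5 of 17 alternative fits, that of Serpinc1 in 4 and that of C8b in 0.

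**Figure D2:**
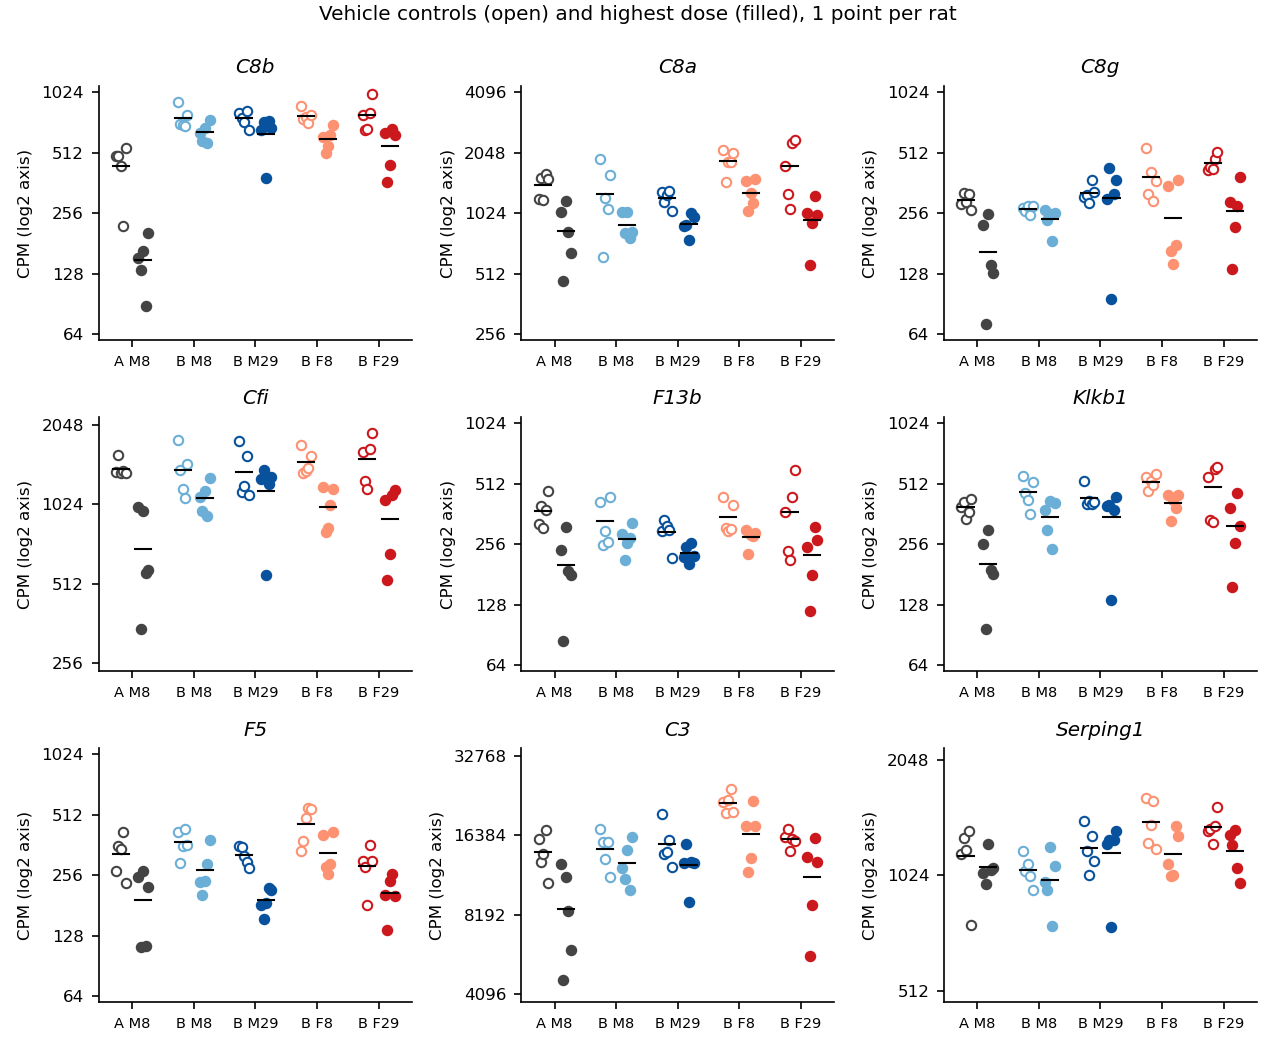
Level in CPM (log2 axis) of 9 members in each rat of the vehicle control (open circles) and of the highest dose (filled circles) of the 5 data sets, 1 point per rat with a line at the group mean. A M8 is experiment A males on day 8, and B M8, B M29, B F8 and B F29 are experiment B males and females on days 8 and 29. The 5 treated rats lie below all controls for C8b, C8a, C8g, Cfi and Klkb1 in experiment A, and in males on day 29 rat 3 lies far below the other 4 for C8g, Cfi and Klkb1.

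The 150 bases before the annotated start of 5 members are shown (RefSeq, build GRCr8), picked after the search from members that fell in experiment A and held a match to an element in these bases. Of the 21 members that fell there and had a promoter, 12 held a match in the whole window and 9 held none. The share of all promoters with a match to any of the elements was not counted, so this count has no background. GRCr8 is a later build than the Rn6 models on which the reads were counted. Promoters were found for 28 of the 38 members. Capitals mark matches to 1 of 6 elements searched on both strands: C/EBP (TTGCNNAA), HNF1 (GTTAATNAT), HNF4 (CAAAGTCCA), STAT (TTCNNNGAA), NF-kB (GGANTTTCC) and the interferon element (GAAANNGAA). C8a and C8b carry a C/EBP match, F9 a C/EBP and a STAT match, and F13b and Plg an HNF1 match.
C8a, chr5:124866632-124866781, reverse strand: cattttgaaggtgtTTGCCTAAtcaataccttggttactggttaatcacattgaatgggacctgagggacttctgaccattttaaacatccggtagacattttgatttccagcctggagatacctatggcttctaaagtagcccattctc
C8b, chr5:124763964-124764113, forward strand: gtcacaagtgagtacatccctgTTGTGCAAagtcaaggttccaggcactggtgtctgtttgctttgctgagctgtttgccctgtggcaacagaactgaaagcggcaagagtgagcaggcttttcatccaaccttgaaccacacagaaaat
F9, chrX:143388492-143388641, forward strand: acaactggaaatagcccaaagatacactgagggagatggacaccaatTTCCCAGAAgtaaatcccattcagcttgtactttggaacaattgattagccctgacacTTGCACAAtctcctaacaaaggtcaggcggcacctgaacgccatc
F13b, chr13:53681489-53681638, forward strand: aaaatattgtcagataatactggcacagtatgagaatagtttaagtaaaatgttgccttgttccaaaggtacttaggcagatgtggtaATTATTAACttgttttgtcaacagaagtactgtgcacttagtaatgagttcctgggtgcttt
Plg, chr1:50915407-50915556, reverse strand: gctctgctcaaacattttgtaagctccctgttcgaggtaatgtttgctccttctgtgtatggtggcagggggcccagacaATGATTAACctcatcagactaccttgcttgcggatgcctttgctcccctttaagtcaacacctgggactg

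In the whole window of 300 bases (250 before to 50 after the start), the C/EBP match was in 10 of 28 member promoters (35.7%) and in 10.6% of all 33469 promoters of the table. They were those of C1r, C3, C6, C8a, C8b, C4bpa, F9, Klkb1, Kng1 and Serpinc1. Its first base lay 136 bases before the start in C8a, 128 in C8b, 104 in C3, 108 in Serpinc1 and 45 in F9. The HNF1 match was in 4 members (14.3%; C5, C4bpa, F13b and Plg) and in 0.747% of all promoters, 33 to 76 bases before the start. The STAT match was in 4 members (14.3%; C8a, C4bpb, F9 and Pros1) and in 8.87% of all promoters. The interferon element was in 2 (7.14%; F11 and Proc) and in 9.71% of all. HNF4 and NF-kB matched 0 members and 0.391% and 1.28% of all promoters. The members with a C/EBP match included C6 and C1r, which did not fall at 1000 mkd in experiment A. A match is a stretch of letters and not a measured binding site.

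Other gene lists moved beside the members at 1000 mkd in experiment A. Of 29 other secreted hepatocyte proteins, 23 fell and 0 rose, with a median log2 fold change of -0.80. Apoa4 (-1.93 ± 0.29, SE, adjusted p = 0.00014), Pon1 (-1.09 ± 0.27, SE, adjusted p = 0.00433) and Apoc3 (-1.01 ± 0.23, SE, adjusted p = 0.00271), all of lipoproteins, changed most. The 10 hepatocyte markers had a median of -0.67, with 4 lower and 0 higher. This list shares genes with the secreted proteins, among them Alb and Apoa1, so the lists are not separate. The 16 transcription factors of hepatocytes had a median of -0.37, and 0 passed the test. Of 14 inflammatory acute phase genes tested, 6 fell and 0 rose, among them Fgl1 (-1.17 ± 0.23, SE, adjusted p = 0.000812), Il1r1 (-1.06 ± 0.35, SE, adjusted p = 0.0253) and Crp (-1.03 ± 0.24, SE, adjusted p = 0.00284). The interferon response list went the other way, with 19 of 21 genes higher and a median of 3.37. Rsad2, an antiviral interferon target, gave 6.82 ± 0.94 (SE, adjusted p = 9.33e-05), Ifit3 5.87 ± 0.99 (SE, adjusted p = 0.000312) and Gbp4 5.31 ± 0.89 (SE, adjusted p = 0.000309).

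Markers of some other cell types rose. Of 12 Kupffer cell and macrophage markers, 9 rose and 0 fell, and their summed level was 588 to 1687 CPM in controls and 1417 to 2510 CPM at 1000 mkd. Of 10 T and NK cell markers tested, 9 rose, and their sum was 26.6 to 34.6 CPM against 47.7 to 84.3 CPM. Among them Cd3e, Cd2 and Cd3d had means of only 0.238, 0.334 and 0.129 CPM in controls. At 1000 mkd they had 1.08, 1.37 and 0.522 CPM, so these genes made up little of the sum. Of 7 endothelial cell markers 4 rose, and their sum was 170.1 to 242.1 CPM against 212 to 351 CPM. No marker of these lists was at 0 in all rats of both groups. The part of these cells in the members' change was not tested.

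Other genes of both systems, outside the list, were taken from lists chosen with earlier results of these data known. Of 23 other complement genes tested, 11 rose and 2 fell, with a median of 0.49. C3ar1, the receptor for C3a (2.20 ± 0.33, SE, adjusted p = 0.000149), Fcnb, a ficolin (2.16 ± 0.53, SE, adjusted p = 0.00444), and C4b, a gene of complement component 4 (1.88 ± 0.45, SE, adjusted p = 0.00339), changed most. Of 31 other coagulation and fibrinolysis genes tested, 9 rose and 10 fell, with a median of -0.11. Among the largest changes were those of Anxa2, which binds plasminogen (1.48 ± 0.30, SE, adjusted p = 0.000984), and Procr, the endothelial protein C receptor (1.42 ± 0.36, SE, adjusted p = 0.00513), both upward.

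Within the group at 1000 mkd the rats differed. The mean over the tested members of log2(CPM + 0.5) was 9.36, 9.54, 9.38, 9.48 and 9.25 in the 5 controls and 9.06, 8.146, 9.16, 8.70 and 8.71 in the 5 treated rats. The same mean over the interferon list was 2.67, 4.73, 3.15, 3.72 and 3.29 in controls and 4.61, 7.99, 5.38, 7.97 and 6.38 in treated rats. Rats 1 and 3, highest for the members, were lowest for the interferon list among the treated. The members took 4.61% ± 0.363 (SD, n = 5) of the reads on genes in controls and 4.19% ± 0.285 (SD, n = 5) at 1000 mkd. The 10 highest genes of each rat took 30.9 to 35.4% of its reads in controls and 20.4 to 32.9% at 1000 mkd.

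**Figure D3:**
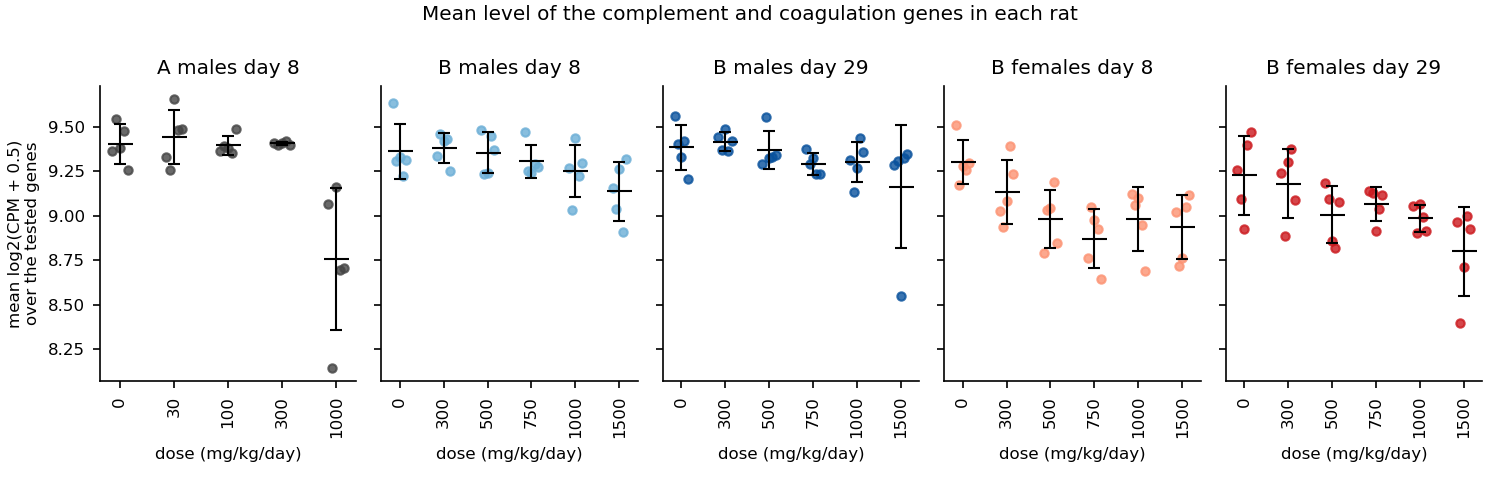
Mean of log2(CPM + 0.5) over the tested members in each rat (points), with the group mean and SD (bars), by dose in mg/kg/day in the 5 data sets. The 5 rats at 1000 mkd in experiment A lie at 8.146 to 9.16, below all 5 controls (9.25 to 9.54), and in males on day 29 rat 3 at 1500 mkd (8.55) lies below the other 4 of its group (9.29 to 9.35).

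In females on day 29, 9 of 36 members were differentially expressed at 1500 mkd, all of them lower, against 3.54% of all genes called lower. At the adjusted p alone 17 fell and 0 rose, against 8.19% of all genes that fell. The median was -0.47, and 34 of 36 members were below the control mean. In 5 members (C8g, Cfi, F2, Proc and Serpinf2) all treated rats were below all controls, which held for 2.62% of all genes. C8a was again among the most changed, at 1761, 1274, 1070.2, 2296 and 2358 CPM in controls and 1022, 563, 919, 1243 and 998 CPM at 1500 mkd (-0.89 ± 0.22, SE, adjusted p = 0.00546). Control rats 4 and 5 were the highest, and treated rat 4 lay within the controls. C8g was at 419, 435, 423, 478 and 514 CPM against 291, 135, 219, 277 and 387 CPM (-0.79 ± 0.19, SE, adjusted p = 0.00504), and Cfi was at 1621, 1256, 1174, 1660.0 and 1903 CPM against 1066, 528, 663, 1113 and 1158 CPM (-0.75 ± 0.17, SE, adjusted p = 0.00338). Neither overlapped.

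The other 6 members called in these females were Cfb, C4bpa, F12, F13b, Klkb1 and Plg. Cfb was at 2832, 2232, 2021, 3173 and 3226 CPM in controls and 1584, 1475, 1493, 2114 and 2022 CPM at 1500 mkd (-0.63 ± 0.14, SE, adjusted p = 0.00249), and treated rats 4 and 5 reached into the controls. F12 was at 1184, 1369, 1253, 1238 and 970.1 CPM against 786, 545, 696, 969 and 974 CPM (-0.60 ± 0.14, SE, adjusted p = 0.00315). Plg was at 3852, 4564, 3578, 5543 and 6400.2 CPM against 3776, 1909, 2879.7, 4089 and 3026 CPM (-0.61 ± 0.19, SE, adjusted p = 0.025). In both, rat 2 was the lowest treated rat and at least 1 treated rat overlapped the controls. C4bpa was at 1227, 784, 607, 1343 and 1485 CPM against 732, 612, 672, 734 and 696 CPM (-0.66 ± 0.18, SE, adjusted p = 0.0125), and 0 of 5 treated rats were below all controls. F13b was at 369, 238, 213, 439 and 596 CPM against 248, 119.6, 180.4, 310.4 and 269 CPM (-0.72 ± 0.23, SE, adjusted p = 0.031). Klkb1 was at 552, 338, 332, 607 and 621 CPM against 387, 157, 261, 458 and 314 CPM (-0.64 ± 0.22, SE, adjusted p = 0.0392). Treated rats 1, 4 and 5 lay within the controls for F13b, and rats 1 and 4 for Klkb1. F2 fell by less than the fold limit (-0.57 ± 0.13, SE, adjusted p = 0.00437), with all treated rats below all controls. C8b (-0.51 ± 0.14, SE, adjusted p = 0.0107) and C9 (-0.57 ± 0.19, SE, adjusted p = 0.0323) did as well, with 4 and 2 of 5 treated rats below all controls. C3 (-0.47 ± 0.17, SE, adjusted p = 0.0544) and Serpinc1 (-0.39 ± 0.14, SE, adjusted p = 0.055) did not pass the test. Nor did Serping1 (-0.21 ± 0.10, SE, adjusted p = 0.166), C1r (0.29 ± 0.20, SE, adjusted p = 0.333) or C2 (0.17 ± 0.11, SE, adjusted p = 0.304). With total counts the log2 fold changes of Serpinc1 and Serping1 were 0.02 and 0.24.

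These calls in females were sensitive to which rats and groups entered the fit. Without treated rat 2 or control rat 5, 4 members were differentially expressed, without treated rat 3, 5, without control rat 4, 7, and without treated rat 4, 14. The shares of all genes called in these fits are not reported here. When only the control and 1500 mkd groups were fitted, 0 members passed the adjusted p. With total counts as the scale 0 members were called lower and 2 higher, C1r (0.74) and C2 (0.63), and 3 fell and 2 rose at the adjusted p alone. With TMM, 1093 of 11451 genes tested at 1500 mkd were called higher at the fold limit and 405 lower. Beside the members, 14 of 29 other secreted proteins fell and 1 rose, with a median of -0.46. Of the interferon list 11 of 21 rose (median 0.95), of 12 Kupffer cell and macrophage markers 5 rose (1059 to 1312 CPM in sum in controls, 1271 to 2323 CPM at 1500 mkd), and of 23 other complement genes 8 rose and 1 fell. The part of these lists in the members' change was not tested. Outside the list, Vkorc1, the vitamin K reductase that clotting factors depend on, gave -0.94 ± 0.18 (SE, adjusted p = 0.000912), and Gas6, a vitamin K dependent ligand, gave -0.96 ± 0.22 (SE, adjusted p = 0.00362).

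**Figure D4:**
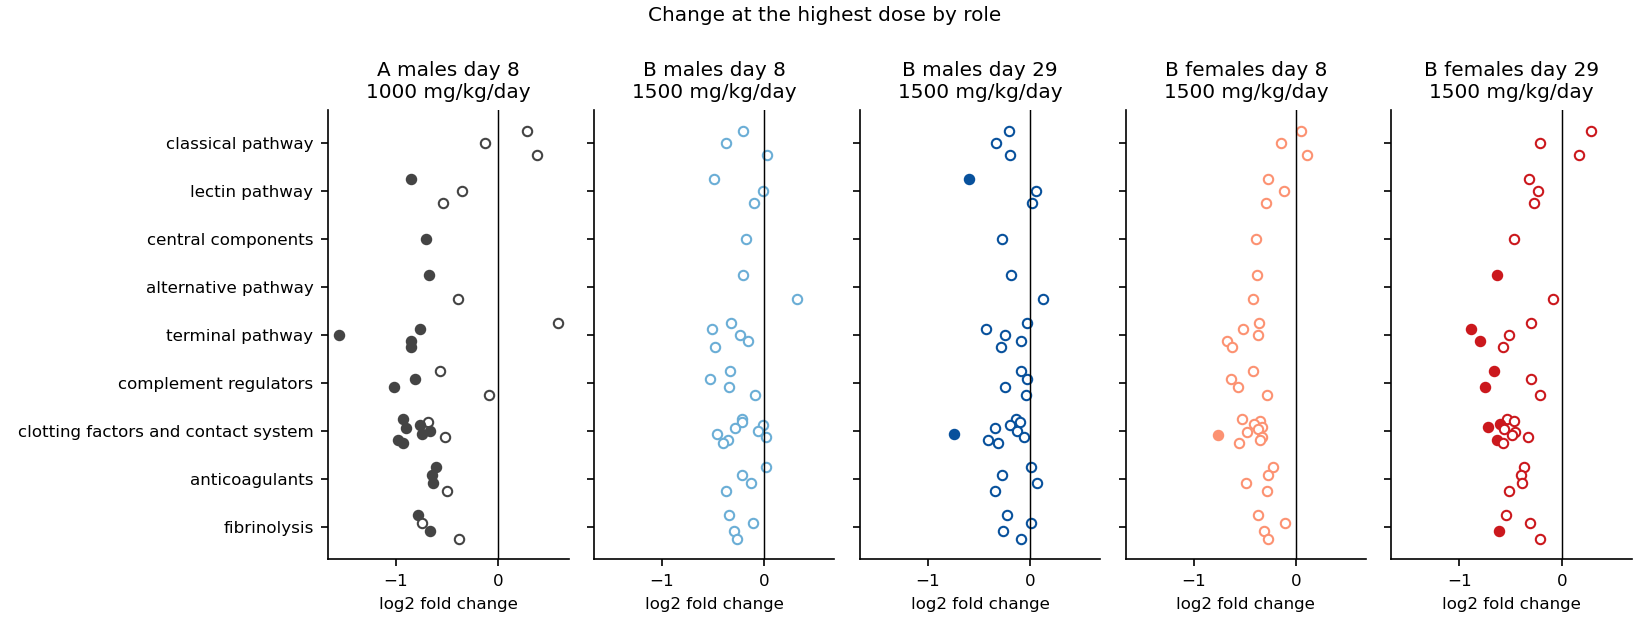
Log2 fold change over the vehicle control at the highest dose for each tested member (1 circle per gene), by role (rows) in the 5 data sets (panels). Filled circles mark differential expression: terminal pathway and clotting factor genes lie left of 0 in experiment A except for C6, and classical pathway genes lie on both sides of 0.

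F5 was, in males on day 29, the member that changed most. It was at 359, 355, 319.5, 299 and 279 CPM in the controls. It was at 189, 196, 148, 211 and 170.1 CPM at 750 mkd, 223, 158, 179, 164 and 186 CPM at 1000 mkd and 183, 154, 185, 222 and 216 CPM at 1500 mkd. At each of these 3 doses all treated rats were below all controls, and rat 3 at 1500 mkd did not stand apart for this gene. The log2 fold changes were -0.82 ± 0.15 (SE, adjusted p = 0.0291) at 750 mkd, -0.82 ± 0.15 (SE, adjusted p = 0.0134) at 1000 mkd and -0.75 ± 0.15 (SE, adjusted p = 0.00863) at 1500 mkd. At 500 mkd the value was -0.43 ± 0.15 (SE, adjusted p = 0.236), with 4 of 5 rats below all controls. F5 kept its call at 1500 mkd in all 17 alternative fits.

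The only other member called in these males was Masp1 at 1500 mkd, at 335, 341, 277, 299 and 294 CPM in controls and 223, 164, 100.3, 238 and 297 CPM in treated rats (-0.59 ± 0.18, SE, adjusted p = 0.0407). Its treated rat 5 lay within the controls, and the call was lost in 8 of 17 alternative fits. In all, 2 of 35 members were differentially expressed at 1500 mkd, against 1.76% of all genes called lower, and the same 2 fell at the adjusted p alone, against 2.98%. In 3 members (C8a, F5 and Serpind1) the groups did not overlap, which held for 3.95% of all genes. Without rat 3 at 1500 mkd 1 member was differentially expressed. That rat was the lowest of its group for most members. C8g, for example, was at 307, 315, 287, 374 and 325 CPM in controls and 299.7, 429, 95.4, 319.5 and 375 CPM at 1500 mkd, and Klkb1 at 525, 406, 421, 405 and 416 CPM against 398, 401, 135, 379.8 and 440.1 CPM. For C8g the other 4 rats lay within or above the controls, and its log2 fold change was -0.09 ± 0.22 (SE, adjusted p = 0.829). Of 11279 genes tested at 1500 mkd, 356 were called higher at the fold limit. Beside the members, 1 of 29 other secreted proteins fell (median -0.08) and 1 of 21 interferon response genes rose (median 0.12). The summed level of the Kupffer cell and macrophage markers was 360 to 896 CPM in controls and 623 to 1464 CPM at 1500 mkd, and 0 of 12 passed the test.

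In females on day 8, 34 of 36 members were below the control mean at 1500 mkd, with a median of -0.36, but 1 was differentially expressed, against 0.183% of all genes called lower. The same member was the only one to fall at the adjusted p alone (0.226% of all genes fell), and 18 members had an unadjusted p under 0.05, all of them lower (5.97% of all genes). It was F7, at 189, 156, 176, 125 and 154 CPM in controls and 140.5, 80.8, 64.3, 76.3 and 112 CPM at 1500 mkd (-0.76 ± 0.19, SE, adjusted p = 0.0487). Treated rat 1 lay within the controls, and the call was lost in 13 of 17 alternative fits. Without treated rat 1, 5 members were differentially expressed, and without treated rat 5, 4. Leaving out any other single control or treated rat gave 0. The shares of all genes called in these fits are not reported here. In 6 members (Cfb, C8b, C4bpa, C4bpb, Cfi and Klkb1) the groups did not overlap, which held for 1.06% of all genes. Cfi was at 1718, 1353, 1369, 1405 and 1569 CPM against 1189.5, 804, 832, 1019 and 1170.4 CPM (-0.56 ± 0.15, SE, adjusted p = 0.061). C3 gave -0.39 ± 0.20 (SE, adjusted p = 0.363), F2 -0.37 ± 0.14 (SE, adjusted p = 0.187), Serpinc1 -0.49 ± 0.15 (SE, adjusted p = 0.0987) and Serping1 -0.28 ± 0.13 (SE, adjusted p = 0.31), none past the test. DESeq2 called 3 members differentially expressed at this dose, all of them lower, and 2.82% of all genes it tested. It called 7 members at any of the lower doses, where it called 0.00685%, 0.0851%, 1.88% and 2.14% of all genes and edgeR called 0 members. In edgeR, 60 of 11497 genes tested at 1500 mkd were called higher at the fold limit. Beside the members, 1 of 29 other secreted proteins fell (median -0.31), 3 of 21 interferon response genes rose (median 1.81), and 0 of 12 Kupffer cell and macrophage markers passed the test.

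In males on day 8 of experiment B, 0 of 35 members were differentially expressed at 1500 mkd with edgeR or DESeq2, and 0.0354% of all genes were called lower with edgeR (0.0354% fell at the adjusted p alone). DESeq2 called 1.41% of all genes. The median was -0.22, and 31 members were below the control mean, as were 50.5% of all genes. An unadjusted p under 0.05 was found for 13 members, all of them lower, and for 6.32% of all genes in this direction. In 1 member, Pros1, the groups did not overlap, which held for 1.1% of all genes. F5 gave -0.46 ± 0.19 (SE, adjusted p = 0.274), C8a -0.52 ± 0.22 (SE, adjusted p = 0.306) and C9 -0.49 ± 0.18 (SE, adjusted p = 0.226). C3 gave -0.18 ± 0.16 (SE, adjusted p = 0.672), F2 -0.06 ± 0.13 (SE, adjusted p = 0.882), Serpinc1 -0.13 ± 0.12 (SE, adjusted p = 0.699) and Serping1 -0.09 ± 0.10 (SE, adjusted p = 0.764). With total counts the log2 fold changes of F2 and Serping1 were 0.07 and 0.04. In none of the other gene lists did a gene pass the test at this dose.

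Below the highest dose, members were rarely called. In experiment A 0 members were differentially expressed at 30, 100 and 300 mkd, and 0% of all genes were. In these groups 0 members had an unadjusted p under 0.05 (1.7%, 1.11% and 0.98% of all genes, lower) and DESeq2 called 0 (0%, 0% and 0.00686%), and the medians were 0.03, 0.02 and 0.00. The count in males on day 8 of experiment B was 0 at 300, 500, 750 and 1000 mkd (0% of all genes at each), and 0, 0, 2 and 3 members had an unadjusted p under 0.05, all lower (0.778%, 1.47%, 3.28% and 1.56% of all genes). The males of day 29 had a count of 0 at 300 and 500 mkd (0% of all genes at both), where 1 and 2 members had an unadjusted p under 0.05, all lower (1.99% and 7.39%). It was 1 at 750 mkd (0.78%) and 1 at 1000 mkd (2.76%), both F5. The females of day 8 had 0 at 300 (0.0087%), 500 (0.0174%), 750 (0.0174%) and 1000 mkd (1.37%). The members' median in these females was nevertheless -0.19, -0.33, -0.47 and -0.32 at the 4 doses, and 1, 16, 27 and 12 members had an unadjusted p under 0.05, all of them lower, against 1.16%, 3.18%, 6.38% and 6.36% of all genes. The medians did not deepen from 750 to 1500 mkd. The females of day 29 had 0 at 300 (0%), 500 (0.0349%), 750 (0.183%) and 1000 mkd (1.59%), with medians of -0.04, -0.22, -0.17 and -0.27. There 0, 12, 5 and 11 members had an unadjusted p under 0.05, all lower, against 2.02%, 5.2%, 8.4% and 9% of all genes. DESeq2 called 0 members at these doses (0%, 0.563%, 1.4% and 4% of all genes) and 0 in males on day 8 (0%, 0.00687%, 0% and 0%). Cfb fell by less than the fold limit at 1000 mkd (-0.53 ± 0.14, SE, adjusted p = 0.0447).

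A trend over dose was tested in each data set as a linear change of log2 level per 1000 mkd. In experiment A 29 members fell with dose and 2 rose (C1r and C2), against 22.4% and 23.5% of all genes, but without the 1000 mkd group 0 members had a trend. Among females on day 29, 24 members fell with dose and 0 rose (11.9% of all genes fell), but without the highest dose 4 had a trend. Among males on day 29, 9 fell (10.6%), in females on day 8, 8 (1.69%), and in males on day 8, 1 (0.54%), with 0 rising in each. With total counts as the scale, 13, 4, 6, 2 and 1 members fell in these 5 data sets, in the same order, and 5, 2, 1, 0 and 0 rose. The shares of all genes on that scale are not reported here. C8b had a falling trend in 4 of the 5 data sets. Its slope per 1000 mkd was -1.73 ± 0.37 (SE, adjusted p = 0.000436) in experiment A, -0.20 ± 0.08 (SE, adjusted p = 0.0493) in males on day 29, -0.24 ± 0.07 (SE, adjusted p = 0.0302) in females on day 8 and -0.30 ± 0.08 (SE, adjusted p = 0.00468) in females on day 29. F5 had the steepest slope among males on day 29, -0.54 ± 0.10 (SE, adjusted p = 0.000551), and Klkb1 was the 1 member with a trend in males on day 8, -0.36 ± 0.10 (SE, adjusted p = 0.0484). F7 had a trend in females on both days, -0.46 ± 0.11 (SE, adjusted p = 0.0165) on day 8 and -0.43 ± 0.12 (SE, adjusted p = 0.00674) on day 29. In males of experiment B its slope was 0.01 ± 0.08 (SE, adjusted p = 0.96) on day 8 and -0.04 ± 0.08 (SE, adjusted p = 0.731) on day 29.

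Both experiments had a 1000 mkd group of males on day 8, and their responses differed. In 9 of 36 members the change was more negative in experiment A than in experiment B at this dose, by an interaction test in edgeR (adjusted p of at most 0.05), against 7.85% of all genes in either direction. For C8b the log2 fold change was -1.56 in A and -0.14 in B, and the difference was -1.41 ± 0.29 (SE, adjusted p = 0.0017). For F10 the values were -0.93 and -0.12, with a difference of -0.81 ± 0.22 (SE, adjusted p = 0.0153), and for F12 -0.77 and 0.02, with -0.78 ± 0.21 (SE, adjusted p = 0.0141). The other 6 were C3 (-0.76 ± 0.26, SE, adjusted p = 0.0473), Cfi (-0.73 ± 0.23, SE, adjusted p = 0.0368), Proc (-0.67 ± 0.20, SE, adjusted p = 0.0239), F2 (-0.67 ± 0.18, SE, adjusted p = 0.0156), Pros1 (-0.59 ± 0.18, SE, adjusted p = 0.028) and Serpinc1 (-0.57 ± 0.19, SE, adjusted p = 0.0478). Each experiment had its own controls, and strain, supplier, age and experiment cannot be told apart. When only the 4 groups of the contrast were fitted, 0 members passed, and leaving out a replicate number from every group gave 1 to 16.

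Within experiment B, 0 members differed in their response to 1500 mkd between the sexes on day 8 (0% of all genes did) or day 29 (0.466%), or between day 8 and day 29 in males (0%) or females (0.0169%). Unadjusted p under 0.05 were found for 2, 8, 0 and 0 members. The matching shares of all genes are not reported here, so these counts are not a result about the members. The largest of these differences was that of F7 between the sexes on day 8, where the change in females minus that in males was -0.78 ± 0.24 (SE, adjusted p = 0.735). These comparisons share their control groups with the results above.

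Vehicle controls differed by sex in a few members. F7 was higher in control females on both days. On a common scale for experiment B it was at 70.5, 62.0, 51.1, 56.7 and 41.1 CPM in control males and 176, 146, 165, 116 and 144 CPM in control females on day 8. On day 29 it was at 69.9, 62.1, 57.4, 55.6 and 67.3 CPM in males and 128, 178, 144, 150.2 and 100.5 CPM in females. On neither day did the sexes overlap, and females were higher on the log2 scale by 1.41 ± 0.17 (SE, adjusted p = 1.40e-10) on day 8 and 1.17 ± 0.17 (SE, adjusted p = 5.55e-08) on day 29. C6 was also higher in females on both days, by 0.77 ± 0.20 (SE, adjusted p = 0.00291) and 0.79 ± 0.20 (SE, adjusted p = 0.00161), and 4 of 5 females on day 8 were above all males. Kng1 was at 0.494 ± 0.160 CPM in females and 0.169 ± 0.134 CPM in males on day 8 (SD, n = 5 each), a log2 difference of 1.51 ± 0.50 (SE, adjusted p = 0.033) that rests on at most 20 counts in any rat.

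On day 29, Cfd was higher in control females by 0.83 ± 0.26 (SE, adjusted p = 0.0174), whereas Pros1 and Masp1 were lower. Pros1 was at 348, 367, 346, 369 and 315 CPM in males and 236, 170.4, 170.5, 262 and 262 CPM in females (-0.66 ± 0.12, SE, adjusted p = 2.14e-05), and Masp1 was at 356, 364, 296, 321 and 306 CPM against 246, 182, 146, 215 and 207 CPM (-0.72 ± 0.15, SE, adjusted p = 0.000181). For Cfd, Pros1 and Masp1 all females lay on 1 side of all males. In all, 3 members were differentially expressed by sex on day 8, against 8% of all genes, and 5 on day 29, against 12.1%, shares near those of all genes. Between day 8 and day 29, 0 members differed in control males (0.0169% of all genes) or control females (1.25%). Unadjusted p under 0.05 were found for 2 and 4, and the matching shares of all genes are not reported here. Between the control males of the experiments 2 of 36 members differed (1.61% of all genes). The log2 difference, experiment A minus B, was 1.02 ± 0.22 (SE, adjusted p = 0.00248) for Hrg and -0.73 ± 0.20 (SE, adjusted p = 0.0326) for C8b.

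**Figure D5:**
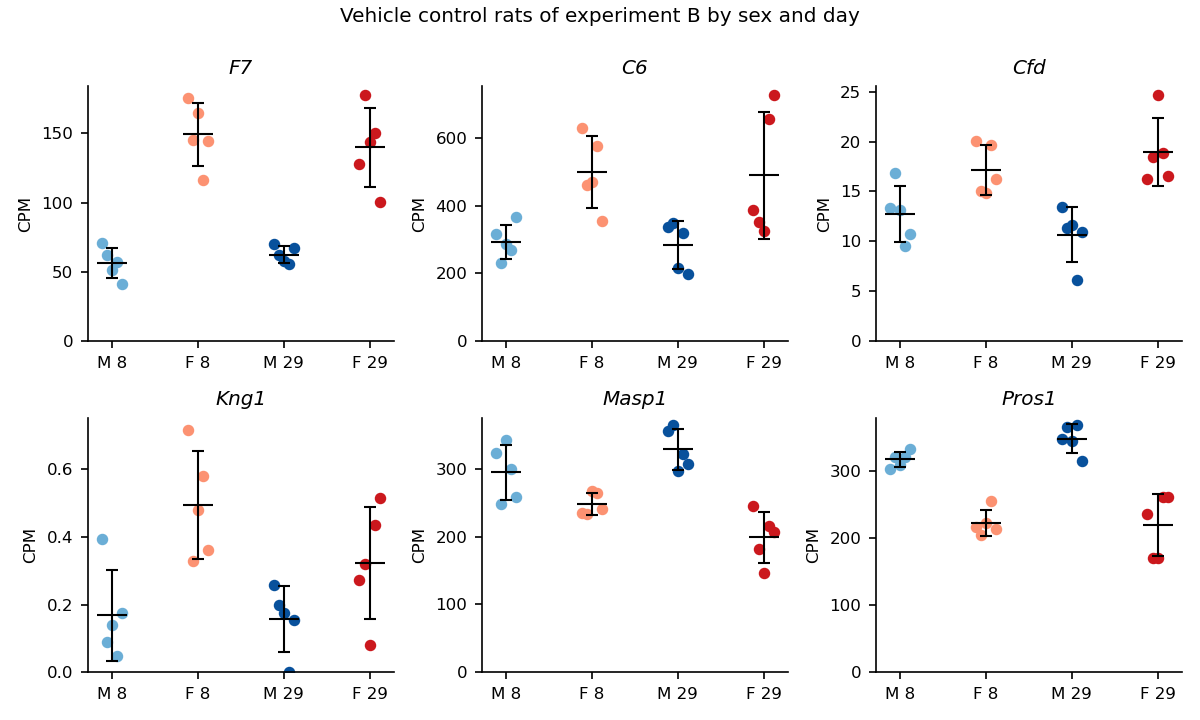
Level in CPM of 6 members in each vehicle control rat of experiment B, by sex and day (M 8, F 8, M 29 and F 29 are males and females on days 8 and 29), with the group mean and SD. F7 lies at 41.1 to 70.5 CPM in the 10 males and 100.5 to 178 CPM in the 10 females.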

How the data were processed

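Liver RNA of 145 rats was sequenced from a stranded mRNA library as single-end reads. Per the labels and the study's methods, the authors trimmed the reads with Trimmomatic, aligned them to Rn6 with Bowtie2 and deposited raw counts per gene from HTSeq. No other unit was used. The HTSeq summary lines, which name no gene, took 35.5 to 67.1% of the total (median 41.2%) in the tables that held them and entered neither library sizes nor tests. No pair of columns was identical, and 0 columns were left unused.

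Counts of the 17337 genes were analysed in edgeR 4.0.16 (R 4.3.3) with TMM factors, filterByExpr and the quasi-likelihood F-test, and p-values were adjusted over all genes tested by Benjamini-Hochberg. Doses were compared with the vehicle group of the same sex and day, and all groups of a data set shared 1 estimate of the spread. Levels (CPM) are counts scaled to the TMM-adjusted library. SE was taken as the log2 fold change over the root of F. Differences between responses and between vehicle controls were tested in a single fit of experiment B, or of all rats where the experiments were compared. The steps were tested on simulated data. Alternatives were DESeq2 1.42.0, its size factors, total counts, fits with no filter or with a minimum of 10 counts per rat, the replicate block, fits of fewer groups and leaving out replicates. Low counts limit precision for Kng1, and the cause of the 0 counts of Mbl2 was not tested.

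The members and the lists of other genes were chosen with earlier results of these data known. The lists were other complement genes, other coagulation and fibrinolysis genes, other secreted hepatocyte proteins, hepatocyte transcription factors, interferon response, inflammatory acute phase, and markers of hepatocytes, Kupffer cells and macrophages, endothelial, stellate and T and NK cells, cholangiocytes, neutrophils, B cells and erythroid cells. Per-rat or group values are given for members called at the highest dose of at least 2 data sets, the 4 largest of those called in 1, members of an interaction test, the 6 largest sex differences, and C3, F2, Serpinc1 and Serping1. Of each list, named genes are among the 3 largest called at the highest dose, and some of these are not reported here. Other members are named to account for every member. Same-numbered rats did not deviate together in every pair (2 to 4 of 5 pairs had a correlation over 0.1). The median correlation was -0.02 in experiment A and 0.139 to 0.269 in the data sets of experiment B. Replicate numbers were not taken to pair rats, but a shared block in experiment B is not excluded by these values. In experiment A the check used the numbers given here, which are not all those of the titles.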

Additional observations from a re-analysis of the deposited data

Results flagged for a closer look

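Among the 5 rats of a group, a rat was picked out where its gap to the nearest other rat exceeded 0.71 of the group's range (Dixon), which chance gives in about 1 in 20 groups. This held in 22 of 244 groups of named members at the vehicle and highest dose, and 11 of the 22 were the same animal, rat 3 at 1500 mkd of the males of day 29. In that rat C8g was at 95.4 CPM against 299.7 to 429 CPM in the other 4, Klkb1 at 135 against 379.8 to 440.1, F10 at 217 against 498 to 612, Proc at 289 against 616 to 766, C8b at 383 against 663 to 732 and F9 at 416 against 903 to 1079.6. Cfi was at 555 against 1229 to 1378 CPM, C9 at 558 against 1119 to 1439, Serping1 at 749 against 1236 to 1336, Cfb at 1335 against 2210.2 to 2452 and Serpinc1 at 1811 against 3342 to 3827. The same rat had the lowest share of reads on Alb of its group, 8.23%, and the highest TMM factor, and their part in its values was not tested.

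The other 11 were spread over the data sets. In experiment A controls, C8b was at 222 CPM in rat 4 (439 to 542 in the others), Cfi at 1579 CPM in rat 2 (1342 to 1373), and Serping1 at 761 CPM (1163 to 1336) and Serpinc1 at 2080.5 CPM (2591 to 2794) in rat 5. In males on day 8, C9 was at 2363 CPM in control rat 1 (1125 to 1387), and in rat 4 at 1500 mkd F7 was at 42.1 CPM (55.5 to 59.1) and Proc at 382 CPM (528 to 575). In control males on day 29, Cfd was at 5.68 CPM in rat 4 (10.5 to 12.6), F13b at 218.5 CPM in rat 5 (298 to 339) and Klkb1 at 525 CPM in rat 1 (405 to 421). In females on day 8, F13b was at 229.8 CPM in rat 2 at 1500 mkd (283 to 302.5).

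The response to 1000 mkd in males on day 8 differed between the experiments, A minus B on the log2 scale, for C8b (-1.41), F10 (-0.81), F12 (-0.78), C3 (-0.76), Cfi (-0.73), Proc (-0.67), F2 (-0.67), Pros1 (-0.59) and Serpinc1 (-0.57). Strain, supplier, age and experiment cannot be told apart in this difference.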

How the results depend on the processing

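In experiment A, 21 members were called at the highest dose, all lower, and with total counts 4 were called, 1 lower and 3 higher. The count was 15 when only 2 groups were fitted, 23 with DESeq2 and 14 to 26 when 1 rat was left out. At the adjusted p alone it was 27 (26 lower), and 13 (8 lower), 15 and 22 to 29. A dose trend was found in 31 (29 falling), 18 with total counts (13 falling), 17 with doses by rank, 0 without the highest dose and 23 to 31 when 1 replicate number was left out. The trend count in males on day 8 was 1, but 0 without a filter, with at least 10 counts, with the replicate block or without the highest dose, 8 with DESeq2, 3 by rank and 0 to 3 with a number left out. The calls at the highest dose in males on day 29 were 2, and 1 with total counts or 2 groups and 1 to 2 with 1 rat left out. Those at lower doses were 1, and 0 with total counts and 0 to 1. The adjusted p alone gave 2, and 4 with DESeq2, 1 with 2 groups and 1 to 3, and the trend 9, and 5 to 9.

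The single call in females on day 8 was 0 with total counts, no filter, at least 10 counts, the replicate block or 2 groups, 3 with DESeq2 and 0 to 5 with 1 rat left out. At lower doses 0 became 1 with total counts and 7 with DESeq2. The adjusted p alone gave 1, and 0 with no filter, at least 10 counts, the replicate block or 2 groups, 6 with DESeq2 and 0 to 6. The trend gave 8, and 2 with total counts, 5 with no filter, 3 with the replicate block and 0 to 7. The calls in females on day 29 were 9, all lower, and 2 with total counts, both higher, 0 with 2 groups and 4 to 14, at lower doses 0 and 0 to 1. The adjusted p alone gave 17, all lower, and 5 (3 lower), 0 and 6 to 23, and the trend 24, all falling, and 6 with total counts (4 falling), 4 without the highest dose and 16 to 20. Between controls, the sexes differed in 2 to 3 members on day 8 and 4 to 6 on day 29, females by duration in 1 with total counts or at least 10 counts and 0 to 1, and the experiments in 0 with only the groups compared and 1 to 2. The response differed by experiment in 9, and in 0 with only those groups, 6 with total counts, 10 with the replicate block and 1 to 16. The replicate block moved no other count by over 1.5 times.

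Serping1 changed sign with total counts in experiment A (0.47), in males on day 8 (0.04) and day 29 (0.073) and in females on day 29 (0.24), and in males on day 29 without treated replicate 3 (0.015, with a range of -0.151 to 0.015 over the rats left out). F2 in males on day 8 changed sign with total counts (0.066) and without control replicate 1 (0.033) or treated replicate 4 (0.023, range -0.137 to 0.033). Serpinc1 changed sign in females on day 29 with total counts (0.019), and in males on day 29 without a filter (-0.006) and without control replicate 3 (-0.029), control replicate 5 (-0.005) or treated replicate 5 (-0.056, range -0.056 to 0.151). None of these passed the test under the alternative except Serping1 in experiment A, which rose with total counts. Among the values of single named members under all alternatives, 836 kept their side of the threshold and direction, 159 lost their call, 5 gained one and 13 changed sign. Fits of fewer groups or rats have fewer samples by construction, and the shares of all genes called in them are not reported here. Otherwise the cause was not tested.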

Other observations

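At 1000 mkd in experiment A, markers of blood cells and of rarer liver cells did not share 1 direction. Of 5 erythroid cell markers tested, 2 fell and 0 rose (median log2 fold change -0.86), with Hbb, a globin, at -2.30 ± 0.45 (SE, adjusted p = 0.000863) and Alas2, which starts heme synthesis in erythroid cells, at -2.39 ± 0.55 (SE, adjusted p = 0.00278). Of 3 neutrophil markers 2 fell (median -1.74), S100a8 (-1.82 ± 0.54, SE, adjusted p = 0.0135) and S100a9 (-1.74 ± 0.61, SE, adjusted p = 0.0351). Their means were 1.30 and 2.41 CPM in controls and 0.372 and 0.732 CPM at 1000 mkd. Of 9 stellate cell markers 2 rose and 0 fell (median 0.27), and 0 of 4 cholangiocyte (0.21) and 0 of 3 B cell markers (-0.23) passed the test in edgeR.

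At 1500 mkd in females on day 29, 1093 of 11451 genes tested were called higher at the fold limit and 405 lower. In these females 3 of 5 erythroid cell markers fell (median -1.26). Of 9 stellate cell markers 2 rose, as did 1 of 4 cholangiocyte, 2 of 7 endothelial cell, 2 of 9 T and NK cell and 1 of 3 neutrophil markers, and 0 of 2 B cell markers passed the test. The complement genes outside the members that changed most were C3ar1 (1.46 ± 0.30, SE, adjusted p = 0.00158), Itgb2, a subunit of complement receptor 3 (1.11 ± 0.32, SE, adjusted p = 0.0162), and C5ar1, the receptor for C5a (1.05 ± 0.25, SE, adjusted p = 0.005). Plaur, the urokinase receptor, rose as well (1.28 ± 0.29, SE, adjusted p = 0.00336). Mean levels in the controls were 1.98 CPM for C3ar1, 4.45 for C5ar1, 1.22 for Plaur and 26.5 for Itgb2. Of 16 hepatocyte transcription factors 0 passed the test there. In males on day 29, Rxra, a nuclear receptor partner, fell (-1.41 ± 0.29, SE, adjusted p = 0.0088) and Anxa2 rose (1.15 ± 0.29, SE, adjusted p = 0.0209). In females on day 8, Gas6 fell (-1.17 ± 0.25, SE, adjusted p = 0.0366), as did Stat3, a transducer of interleukin 6 signals (-0.60 ± 0.13, SE, adjusted p = 0.038).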
